A study of Mus musculus with 2 samples.

Results

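The eicosanoid and lipid mediator enzymes described here are 10 genes, *Alox5*, *Alox5ap*, *Alox15*, *Ptgs1*, *Ptgs2*, *Ptges*, *Ltc4s*, *Lta4h*, *Hpgds* and *Cyp4f18*, taken by name from the 32285 genes counted in both libraries. All 10 were found, and all were followed in every myeloid class of both libraries. Eicosanoids are short-lived lipid signals that leukocytes make from arachidonic acid, a fatty acid released from membranes by phospholipases. In the leukotriene branch, 5-lipoxygenase (*Alox5*) works with its activating protein (*Alox5ap*) to make leukotriene A4. That intermediate becomes the neutrophil attractant leukotriene B4 through *Lta4h*, or the cysteinyl leukotrienes through *Ltc4s*. In the prostanoid branch, the cyclooxygenases *Ptgs1* and *Ptgs2* make prostaglandin H2, which *Ptges* turns into prostaglandin E2 and *Hpgds* into prostaglandin D2. *Alox15* encodes 12/15-lipoxygenase, which oxidizes other positions of arachidonic and related acids, and *Cyp4f18* encodes a cytochrome P450 that inactivates leukotriene B4.

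The study profiled live CD45+ 7-AAD-negative leukocytes of neonatal mouse hearts by scRNA-seq, with 1 WT library and 1 *Lyve1* KO library. Both groups had myocardial infarction at postnatal day 2, and hearts were taken 7 days later, at 9 days of age. Each library pooled the cells of 5 hearts, and the KO carries its deletion of *Lyve1*, a hyaluronan receptor, in all cells rather than in macrophages alone. The mouse strain of these pools is not given in the sources used here. With 1 library per genotype there is no replicate check and no test between genotypes. All intervals below are exact 95% intervals (Poisson for levels and ratios, Clopper-Pearson for shares) that cover counting error only, and cells of a pool are not replicates. Where a count was 0, the share or level it allows was taken as 3 counts, a floor below the exact upper limit.

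The WT library held 5713 barcodes with 67968938 unique molecular identifiers (UMIs, single captured RNA molecules) and the KO library 5285 barcodes with 61555917 UMIs. After the limits on cells, 4187 WT cells (median 11106 UMIs) and 3391 KO cells (median 12856 UMIs) were kept, of which 3 barcodes occurred in both libraries. *Lyve1* itself stood at 247 counts per 1000000 UMIs of the same cells (CPM) in all WT cells and 13.1 CPM in the KO cells, and at 1291 against 32.4 CPM in CCR2- resident macrophages. Cells were clustered without the 10 members, and 12 myeloid classes were named from marker lists. Every name stands for a class like that cell type. The classes ran from 771 WT and 283 KO cells in microglia-type macrophages (with *Olfml3* and *Fcrls*) to 22 WT and 4 KO cells in mature dendritic cells. CCR2- resident macrophages held 251 WT and 139 KO cells, cavity-type macrophages (the kind with *Prg4* and *Gata6* that fills body cavities) 63 and 59, CCR2+ macrophages 196 and 179, classical monocytes 243 and 251, and neutrophils 351 and 337. A further 1127 WT and 796 KO cells lay in unnamed clusters and were left out of the classes.

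For 9 of the 10 members the myeloid class with the highest level was the same in both libraries. Mast cells or basophils, counted as 1 class, held the highest level of *Alox5*, *Alox5ap*, *Ptgs2* and *Cyp4f18*. Cavity-type macrophages held the highest level of *Alox15*, *Ptgs1*, *Ptges* and *Ltc4s*. *Hpgds* was highest in CCR2- resident macrophages, where its interval overlapped that of microglia-type macrophages. *Lta4h* was highest in conventional dendritic cells type 2 in the WT library and in neutrophils in the KO library, with overlapping intervals in both. The first place of mast cells or basophils rested on 44 cells in all. On the mean of per-cell log values classical monocytes led for *Alox5ap* in both libraries, and without the highest cell neutrophils led for *Ptgs2* and *Cyp4f18* in the KO library.

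**Figure D1:**
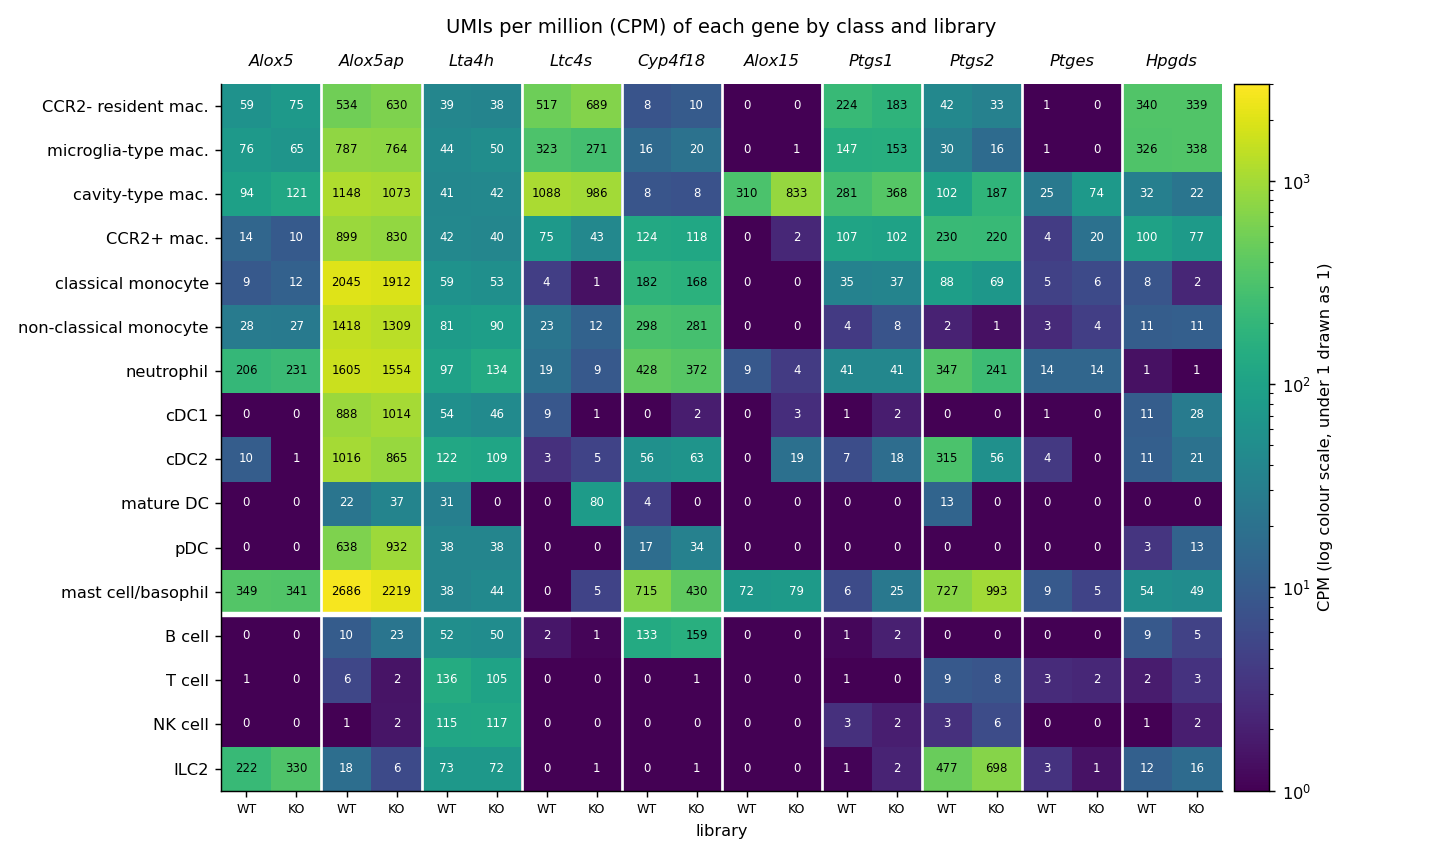
Heat map of the named classes (rows) and the 10 members in the WT and the KO library (columns), coloured by CPM on a log scale. The CCR2- resident, microglia-type and cavity-type macrophages stand out for Ltc4s and Ptgs1, with Hpgds low in the cavity-type class. Neutrophils stand out for Alox5 and Cyp4f18, and Alox5ap is high in every myeloid class except mature dendritic cells.

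In the leukotriene branch, *Alox5* was measured at 349 CPM in the WT (287–421) and 341 CPM in the KO (265–432) mast cells or basophils, and at 206 (190–224) and 231 (214–249) CPM in neutrophils. Cavity-type macrophages followed with 93.9 CPM in the WT and 121 CPM in the KO library, then microglia-type macrophages with 75.7 and 65.1 CPM and CCR2- resident macrophages with 58.8 and 74.5 CPM. *Alox5* thus formed a step-wise order in which the first 3 classes were apart from each other in both libraries. The last 2 of those 5 classes overlapped in the KO library. Classical monocytes (9.31 and 12.2 CPM) and CCR2+ macrophages (13.9 and 9.75 CPM) lay far lower, and no *Alox5* UMI was found in conventional dendritic cells type 1, mature or plasmacytoid dendritic cells of either library. The exact upper limits there were 3.59 and 3.55 CPM, 16.5 and 22.7 CPM, and 12.8 and 15.6 CPM. Limits of the mature and plasmacytoid classes thus lay above the level of classical monocytes in both libraries. With each cell thinned to 6400 UMIs, *Alox5* was detected in 67.5% of WT and 68.4% of KO neutrophils, in 45.2% and 44.6% of cavity-type macrophages, and in 0 of 492 WT and 0 of 706 KO B or T cells, where 3 counts would be a share of 0.61% and 0.425% (exact upper limits 0.747% and 0.521%). Without thinning these shares were 67.2% and 69.4% in neutrophils (median 7656 and 7946 UMIs), 90.5% and 86.4% in cavity-type macrophages (47261 and 53657 UMIs), and 0.409% and 0% in B or T cells (10402 and 12828 UMIs).

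*Alox5ap*, the membrane protein that presents arachidonic acid to 5-lipoxygenase, was far more widely spread than its partner. Its level was 2686 CPM in the WT library and 2219 CPM in the KO library in mast cells or basophils, 2045 and 1912 CPM in classical monocytes, 1605 and 1554 CPM in neutrophils, and 1418 and 1309 CPM in non-classical monocytes. These 4 classes kept that order in both libraries with intervals apart. All other myeloid classes lay between 534 CPM (WT CCR2- resident macrophages) and 1148 CPM (WT cavity-type macrophages), except mature dendritic cells at 22.3 and 37.0 CPM. Classical monocytes therefore combined one of the highest levels of *Alox5ap* with a low level of *Alox5*, at rank 9 of 12 classes in the WT and 7 of 12 in the KO library. After thinning, an *Alox5ap* UMI was seen in 99.6% of classical monocytes of both libraries, against 4.07% of WT and 4.67% of KO B or T cells. Unthinned, these shares were 100% in both libraries, and 7.64% and 11.1%.

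*Ltc4s*, the enzyme that joins leukotriene A4 to glutathione, was highest in cavity-type, CCR2- resident and microglia-type macrophages. Its level was 1088 CPM in the WT library and 986 CPM in the KO library in cavity-type macrophages, 517 and 689 CPM in CCR2- resident macrophages, and 323 and 271 CPM in microglia-type macrophages. CCR2+ macrophages held 75.4 CPM (67.8–83.5) in the WT and 42.6 CPM (37.2–48.5) in the KO library, and classical monocytes 4.48 and 1.42 CPM. Taken as whole classes, cavity-type, CCR2- resident and microglia-type macrophages were above CCR2+ macrophages, and monocytes were lower still, in both libraries. This did not hold for every cluster. Within CCR2- resident macrophages the cluster led by *Cd207* held 32.5 and 5.05 CPM, below CCR2+ macrophages. Neutrophils, which carried *Alox5*, had *Ltc4s* at 19.4 and 9.24 CPM, and mast cells or basophils held 0 UMIs in the WT and 1 UMI in the KO library. In mature dendritic cells of the KO library *Ltc4s* stood at 80.1 CPM, from 13 UMIs in 2 of 4 cells.

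*Lta4h*, whose product is leukotriene B4, was the member least tied to a class. It lay between 31.2 and 122 CPM in all 12 myeloid classes of the WT library, and between 37.5 and 134 CPM in the KO library apart from mature dendritic cells, with 0 UMIs in 4 cells. The highest levels were 122 CPM (104–142) in WT and 109 CPM (93.7–127) in KO conventional dendritic cells type 2, 97.1 (85.9–109) and 134 (121–148) CPM in neutrophils, and 80.8 and 89.9 CPM in non-classical monocytes. Lymphoid cells reached the same range, with 136 and 105 CPM in T cells and 115 and 117 CPM in NK cells. In thinned B or T cells 32.5% of WT and 34.6% of KO cells had a UMI, and unthinned 43.5% and 52.9%.

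*Cyp4f18*, on the breakdown side of leukotriene B4, followed the granulocytes and monocytes. Mast cells or basophils held 715 CPM (625–814) in the WT and 430 CPM (344–530) in the KO library, and neutrophils 428 (404–453) and 372 (350–394) CPM. Non-classical monocytes (298 and 281 CPM), classical monocytes (182 and 168 CPM) and CCR2+ macrophages (124 and 118 CPM) came next, in this order with intervals apart in both libraries. Microglia-type macrophages (15.7 and 20.2 CPM), CCR2- resident macrophages (7.93 and 9.99 CPM) and cavity-type macrophages (8.36 and 7.59 CPM) were low. *Cyp4f18* was thus low in the classes where *Ltc4s* was high. A UMI was found in 84.6% of WT and 82.0% of KO neutrophils after thinning, and in 0.546% and 0.356% of T cells, while B cells had their own expression at 133 and 159 CPM. Unthinned, the neutrophil shares were 80.6% and 82.5% and the T cell shares 0.328% and 0.585% (median 10090 and 12427 UMIs).

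**Figure D2:**
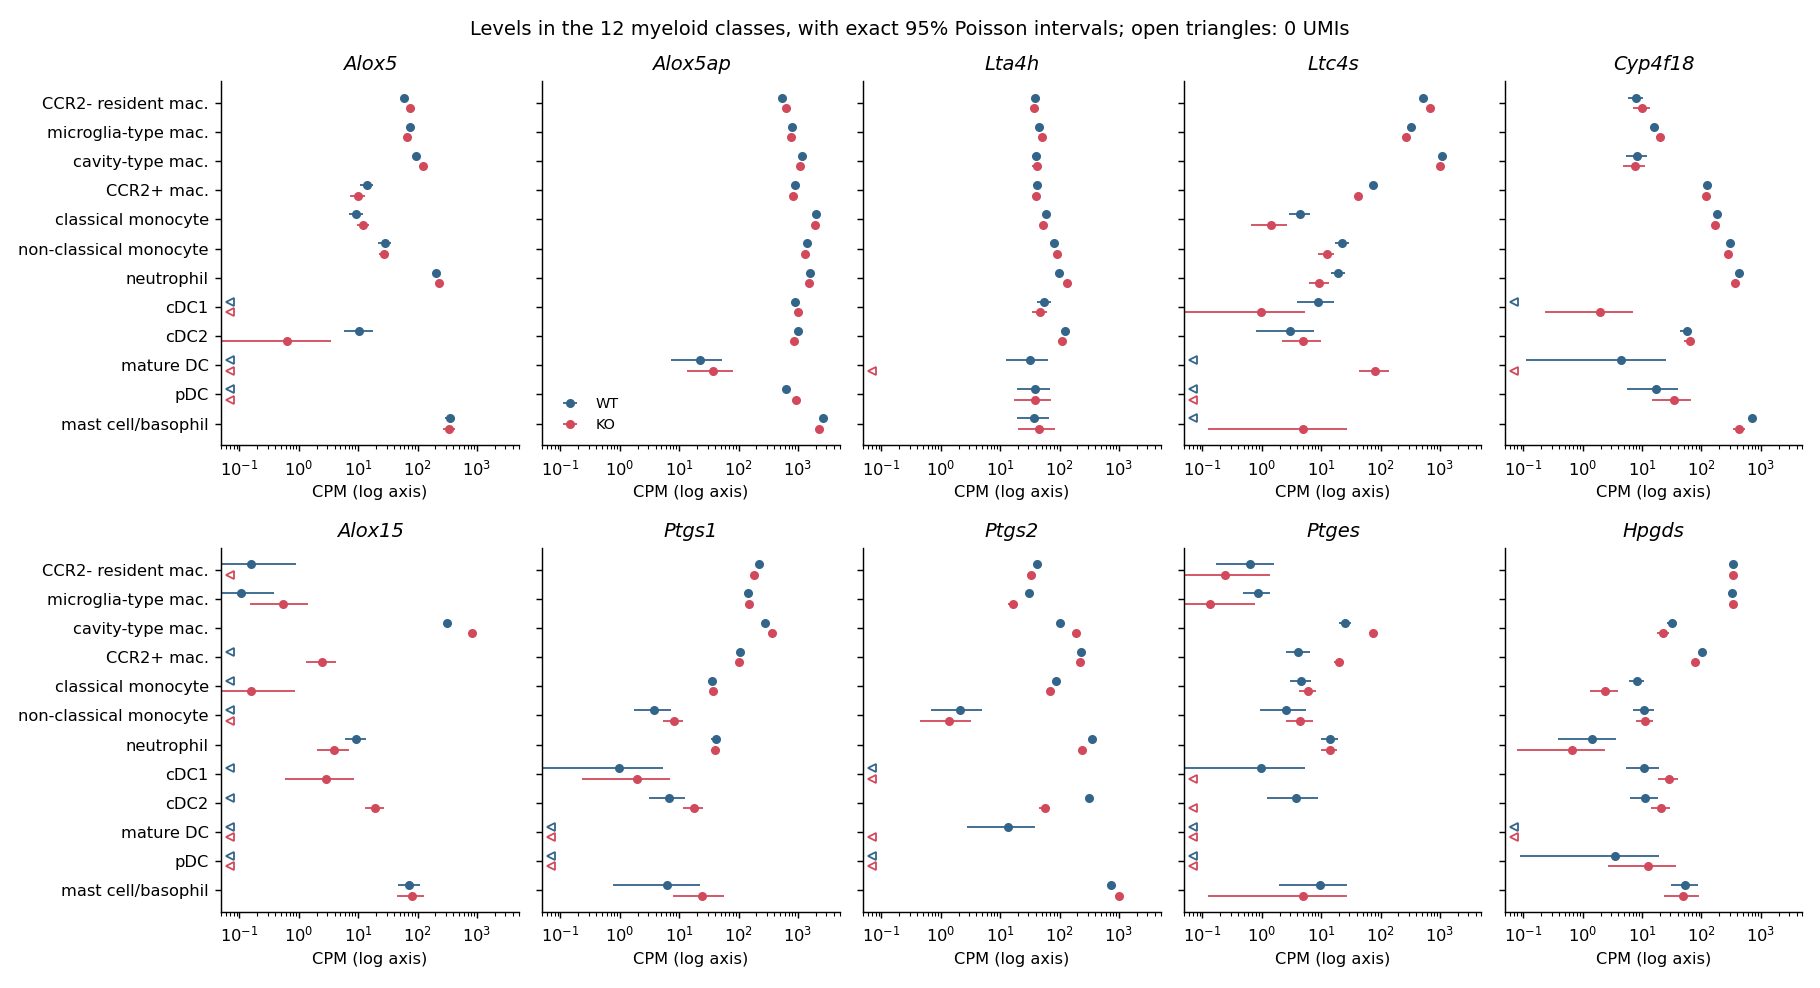
Level of each member in CPM on a log axis in the myeloid classes, WT and KO library side by side, with exact Poisson 95% intervals that cover counting error only. Ltc4s and Hpgds are lower in CCR2+ than in CCR2- resident macrophages, Cyp4f18 runs the other way, and Lta4h is nearly level.

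Enzymes that act in sequence met in single cells of some classes and not of others. At 6400 UMIs per cell, *Alox5*, *Alox5ap* and *Ltc4s*, the set needed for leukotriene C4, were detected together in 43.5% of WT (31.0–56.7) and 44.6% of KO (31.3–58.5) cavity-type macrophages. The same set was found in 20.2% and 27.7% of CCR2- resident macrophages, in 23.8% and 18.7% of microglia-type macrophages, and in 2.85% and 2.80% of neutrophils. Neutrophils, with *Alox5* and *Alox5ap* together in 67.5% and 68.4% of cells, thus rarely held *Ltc4s* at this depth. *Alox5*, *Alox5ap* and *Lta4h*, the set for leukotriene B4, met in 11.8% of WT (8.04–16.5) and 50 of 250 KO neutrophils (15.2–25.5%). Neither set was found in B or T cells. Neutrophils below this depth were left out, so that 250 of 337 KO cells remained. Most *Lta4h* UMIs of neutrophils, 202 of 275 in the WT and 313 of 406 in the KO library, lay in 1 small, deeper cluster led by *Ngp*, described below. Unthinned, the leukotriene C4 set was seen in 90.5% and 81.4% of cavity-type macrophages and 3.70% and 3.56% of neutrophils, so that such shares depend on depth.

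*Alox15* was found almost only in cavity-type macrophages, at 310 CPM in the WT (290–330) and 833 CPM in the KO library (801–865). Mast cells or basophils held 72.4 CPM (23 UMIs) and 79.1 CPM (16 UMIs). Neutrophils held 9.18 and 3.96 CPM, all in the cluster led by *Acod1* described below. In conventional dendritic cells type 2 the KO library held 31 UMIs, all in 1 cell, and the WT library none. Cavity-type macrophages were thus 4.27-fold above the next class in the WT library and 10.5-fold in the KO library. The WT lead rested on 4 female cells with 720 of the 926 UMIs, and in male WT cells cavity-type macrophages (84.1 CPM) and mast cells or basophils (84.5 CPM) were level. At most 13 UMIs were counted in any other myeloid class.

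The 2 cyclooxygenases differed in where and how evenly they were found. *Ptgs1*, the form that many cells keep on, was measured at 281 CPM (263–301) in the WT library and 368 CPM (347–390) in the KO library in cavity-type macrophages. It stood at 224 and 183 CPM in CCR2- resident macrophages, 147 and 153 CPM in microglia-type macrophages and 107 and 102 CPM in CCR2+ macrophages. All 4 classes kept this order in both libraries with intervals apart. Neutrophils (41.3 and 40.6 CPM) and classical monocytes (35.1 and 37.2 CPM) were lower, and non-classical monocytes held 3.85 and 8.13 CPM.

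*Ptgs2*, the inducible form, was highest in mast cells or basophils (727 CPM in the WT and 993 CPM in the KO library) and in neutrophils (347 and 241 CPM). Of the neutrophil UMIs, 593 of 983 in the WT and 207 of 729 in the KO library lay in the cluster led by *Acod1*. That cluster is described below, and its name is less sure. Conventional dendritic cells type 2 held 315 and 55.9 CPM. CCR2+ macrophages held 230 CPM (217–244) and 220 CPM (207–233), and classical monocytes 88.4 and 69.4 CPM. CCR2- resident and microglia-type macrophages lay between 16.5 and 41.8 CPM. *Ptgs2* was thus higher in CCR2+ than in CCR2- resident macrophages, the reverse of *Ptgs1*. Its RNA came from few cells. In neutrophils 8 of 351 WT cells and 12 of 337 KO cells held at least 50% of the *Ptgs2* UMIs, and in CCR2+ macrophages 9 of 196 and 12 of 179 cells. In KO mast cells or basophils 1 cell held 172 of 201 UMIs. For *Alox5ap* in classical monocytes, by contrast, the same part of the UMIs was spread over 83 of 243 WT and 92 of 251 KO cells.

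The 250 bases upstream of the RefSeq start of the cyclooxygenase pair (GRCm38.p6, + strand, read 5′ to 3′) are shown because the 2 genes share a reaction but not their pattern over cells. Capitals mark matches to 11 short motifs searched on both strands.
*Ptgs1* chr2:36230176-36230425: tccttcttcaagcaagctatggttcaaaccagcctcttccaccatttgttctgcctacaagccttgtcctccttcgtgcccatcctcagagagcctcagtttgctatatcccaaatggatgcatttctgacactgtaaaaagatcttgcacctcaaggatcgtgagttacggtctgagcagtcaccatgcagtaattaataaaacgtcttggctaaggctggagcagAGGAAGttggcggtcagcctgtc
*Ptgs2* chr1:150099781-150100030: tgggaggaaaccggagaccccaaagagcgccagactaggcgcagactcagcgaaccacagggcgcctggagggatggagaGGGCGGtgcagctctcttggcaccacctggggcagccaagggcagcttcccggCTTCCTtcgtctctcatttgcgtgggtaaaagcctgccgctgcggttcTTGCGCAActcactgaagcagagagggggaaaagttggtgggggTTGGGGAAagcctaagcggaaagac
The *Ptgs1* window held 1 match, the ETS core AGGAAG from base -23 to -18 before the start. The *Ptgs2* window held the C/EBP letters TTNNGNAA at -69 to -62 (TTGCGCAA, which matches on both strands) and at -25 to -18 (TTGGGGAA), a GC box GGGCGG from -170, and the ETS core on the reverse strand (CTTCCT) from -117. Such matches are common: of 32851 promoters of the same length, 36.8% held the C/EBP letters, 32.7% the GC box and 29.5% the ETS core. The other motifs searched without a match in either window were the TATA box TATAAA (12.4% of promoters), the cAMP response element TGACGTCA (1.55%), the E-box CACGTG (6.02%), AP-1 TGANTCA (6.75%), the motif of GATA factors AGATAA (9.99%), CCAAT (33.8%), and the STAT6 (5.85%) and NF-kB (3.86%) motifs. A match is a run of letters and not a bound site. Bases after the annotated start were not searched, so a missing motif is missing from these windows only.

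*Ptges*, the terminal enzyme for prostaglandin E2, was low outside cavity-type macrophages, where it stood at 25.4 CPM in the WT (20.01–31.8, 76 UMIs) and 74.0 CPM in the KO library (64.8–84.1, 234 UMIs). Neutrophils held 14.1 and 13.9 CPM, CCR2+ macrophages 4.14 and 19.9 CPM, and CCR2- resident and microglia-type macrophages less than 1 CPM. *Hpgds*, the terminal enzyme for prostaglandin D2, took the opposite part of the macrophages. It was measured at 340 CPM (326–355) in the WT library and 339 CPM (321–357) in the KO library in CCR2- resident macrophages, at 326 and 338 CPM in microglia-type macrophages, and at 100 and 77.3 CPM in CCR2+ macrophages. Cavity-type macrophages held only 32.1 and 22.4 CPM of it, and neutrophils 1.41 and 0.660 CPM. Among macrophages outside the CCR2+ class, *Ptges* RNA was thus highest in cavity-type cells and *Hpgds* RNA in CCR2- resident and microglia-type cells. Cavity-type cells held both, with *Hpgds* at 32.1 CPM beside *Ptges* at 25.4 CPM in the WT library, and 22.4 beside 74.0 CPM in the KO library.

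At matched depth, *Ptgs1* and *Hpgds* were found together in 62.1% of WT (55.7–68.3) and 48.2% of KO (39.6–56.9) CCR2- resident macrophages, and in 45.5% and 46.9% of microglia-type macrophages. In cavity-type macrophages the pair was seen in 9.68% and 5.36% of cells, and in neutrophils in 0 of 246 and 0 of 250, where 3 counts would be 1.22% and 1.2% (exact upper limits 1.49% and 1.46%). *Hpgds* alone was detected in 3.25% of WT and 2.27% of KO B or T cells, and the pair in none of them. Unthinned, the pair was in 93.2% and 87.8% of CCR2- resident macrophages (median 24997 and 28472 UMIs).

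Within classes, clusters formed without the members differed in them, and mostly in the same way in both libraries. In neutrophils, the cluster led by *Ngp*, a granule gene of immature cells (21 WT and 28 KO cells), held *Lta4h* at 421 and 463 CPM against 37.3 and 37.3 CPM in the largest cluster, led by *Stfa1* (249 and 262 cells). That was 11.3-fold (8.52–15.1) and 12.4-fold (9.62–16.1). The small *Ngp* cluster thus carried most of the *Lta4h* UMIs of the class, 202 of 275 in the WT and 313 of 406 in the KO library. *Cyp4f18* and *Ptgs2* ran the other way, with *Cyp4f18* at 110 and 57.6 CPM in the *Ngp* cluster against 516 and 454 CPM, and *Ptgs2* at 0 and 2 UMIs against 390 and 520 UMIs. *Alox5* was close in both, at 213 and 214 against 236 and 250 CPM. Another cluster, led by *Acod1* (81 and 47 cells), held *Ptgs2* at 1113 and 656 CPM, 5.20-fold (4.57–5.92) and 2.57-fold (2.18–3.02) above the *Stfa1* cluster. It had lower *Alox5*, at 99.5 and 146 CPM, and held all *Alox15* UMIs of neutrophils (26 and 12). The name of this *Acod1* cluster is less sure. Its nearest list was that of eosinophils, of which 0 markers were found in enough cells. It was named from 8 neutrophil markers, and no neutrophil marker was among its leading genes. Whether its *Alox15* is RNA of neutrophils was not tested. The *Ngp*, *Stfa1* and *Acod1* clusters also differed in depth and in neutrophil RNA, whose part was not tested. The median was 23204 and 20381 UMIs per cell in the *Ngp* cluster, 7584 and 7728 in the *Stfa1* cluster and 7132 in the *Acod1* cluster of both libraries, and the neutrophil list was lowest in the *Acod1* cluster (37315 and 62566 CPM against 110969 and 126719 CPM in the *Stfa1* cluster).

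CCR2- resident macrophages were made of a cluster led by *Ccl8* (180 WT and 122 KO cells) and one led by *Cd207* (71 and 17 cells). *Ltc4s* was at 662 and 762 CPM in the *Ccl8* cluster and at 32.5 and 5.05 CPM in the *Cd207* cluster, 20.4-fold higher in the WT (15.3–27.8) and 151-fold in the KO library (41.7–1246, from 2 UMIs in the *Cd207* cells). *Alox5* was 4.30-fold (2.84–6.80) and 4.56-fold (2.19–11.4) higher in the *Ccl8* cluster. Both leukotriene genes were thus higher in the same cluster. *Hpgds* was close in both clusters (349 and 334 against 311 and 384 CPM), and *Ptgs1* was higher in the *Cd207* cluster of the WT library, at 407 against 169 CPM. In the KO library it stood at 215 against 180 CPM there, with an interval of the ratio that included 1. The *Ccl8* cluster made up a larger part of the class in the KO library, and within it *Ltc4s* differed by 0.20 on the log2 scale between libraries, against 0.41 in the whole class.

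*Ptgs2* also divided monocytes and microglia-type macrophages. In classical monocytes the cluster led by *S100a8* (135 and 140 cells) held 138 and 113 CPM and the cluster led by *Arhgef37* (108 and 111 cells) 9.35 and 4.32 CPM, a 14.7-fold (9.41–24.3) and 26.2-fold (14.5–53.0) difference. *Alox5ap* was 1977 and 1924 against 2154 and 1893 CPM in the same clusters. The *S100a8* cluster also had more neutrophil RNA, with the list of 10 neutrophil markers at 2465 and 1115 CPM in all against 501 and 647 CPM, and its part in the *Ptgs2* difference was not tested. In microglia-type macrophages the cluster led by *Gdf15* (159 and 65 cells) held *Ptgs2* at 74.6 and 57.8 CPM against 10.6 and 4.6 CPM in the one led by *Olfml3* (415 and 143 cells), 7.06-fold (5.59–8.98) and 12.6-fold (7.23–23.4). *Alox5* was lower in the *Gdf15* cells, at 47.1 and 46.9 against 81.7 and 74.5 CPM. *Ptgs2* and *Alox5* thus ran in opposite directions between these microglia-type clusters and between the *Acod1* and *Stfa1* clusters of neutrophils. This did not hold in general. Over the named classes of both libraries the levels of *Ptgs2* and *Alox5* rose together (Pearson r = 0.776). For the *Ccl8* over the *Cd207* cluster, the WT folds were 0.749 for *Ptgs2* and 4.30 for *Alox5*. The KO folds were 4.77 (3 UMIs in the *Cd207* cells) and 4.56. For the microglia-type cluster led by *Cenpf* over the *Olfml3* cluster they were 3.55 and 1.06 in the WT and 1.48 and 0.885 in the KO library.

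**Figure D3:**
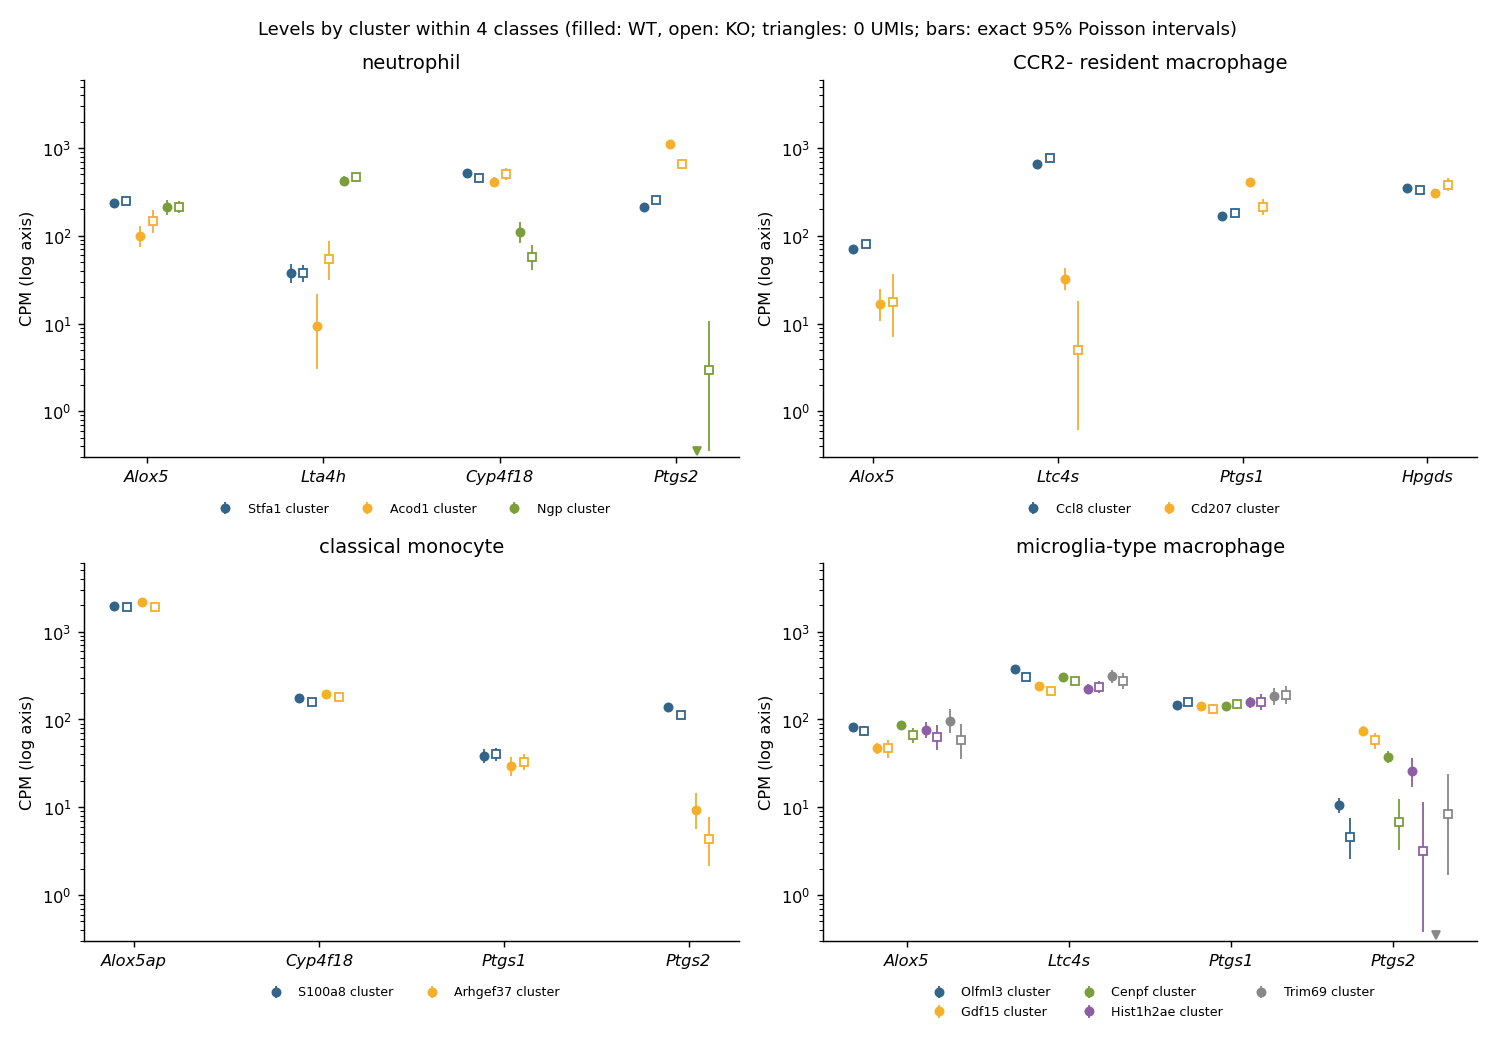
Level in CPM of members in the clusters that make up 4 myeloid classes, WT and KO library, with exact Poisson 95% intervals. Lta4h stands at 421 and 463 CPM in the Ngp cluster of neutrophils, Ltc4s at 662 and 762 CPM in the Ccl8 cluster of CCR2- resident macrophages, and Ptgs2 differs over the clusters of neutrophils, classical monocytes and microglia-type macrophages.

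The class of mast cells or basophils (29 WT and 15 KO cells) could be divided by marker UMIs into cells with more mast cell RNA (*Mcpt4*, *Cma1*, *Tpsb2*; 7 and 7 cells) and cells with more basophil RNA (*Mcpt8*, *Prss34*, *Cd200r3*; 21 and 8 cells). The members were split between them. *Hpgds*, with 17 and 10 UMIs (252 and 123 CPM), was found only in the mast cell part of this class, where prostaglandin D2 is a known product. *Alox5ap* was 399 and 221 CPM in the mast cell part and 3323 and 3562 CPM in the basophil part. *Cyp4f18* (913 and 719 CPM) and *Alox15* (92.5 and 132 CPM) were found only in the basophil part, as were 231 WT and 200 of 201 KO UMIs of *Ptgs2*. *Alox5* was present in both, at 651 and 492 CPM in the mast cell and 270 and 240 CPM in the basophil part. With 7 to 21 cells each, these values describe few cells, and the KO class held a smaller part of basophil cells.

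Between the libraries, most counted member levels differed by less than the size used below. A pair of member and class was counted where both libraries together held at least 100 UMIs, which left 60 of 120 pairs, and the ratio was taken as KO over WT of CPM + 10. A log2 ratio of at least 1 in either direction was reached by 4 of the 60 pairs (6.67%), against 1.03% of all gene and class pairs counted by the same rule. The median over the 60 pairs was -0.05, against -0.02 over all genes. Taken without sign, the median size was larger for the members, at 0.19 against 0.13 over all genes. The 4 pairs were *Alox15* in cavity-type macrophages (1.40), *Ptges* in cavity-type macrophages (1.25), *Ptges* in CCR2+ macrophages (1.08) and *Ptgs2* in conventional dendritic cells type 2 (-2.30). *Alox5*, *Alox5ap*, *Ptgs1*, *Ltc4s*, *Lta4h*, *Hpgds* and *Cyp4f18* passed this size in none of the classes counted for them. By class, cavity-type macrophages held 2 of 9 counted members past it (1.33% of all genes), CCR2+ macrophages 1 of 9 (0.578%) and conventional dendritic cells type 2 1 of 4 (2.11%). No member passed it among 7 in CCR2- resident macrophages (0.53% of all genes), 8 in microglia-type macrophages (0.224%), 6 in classical monocytes (0.275%), 4 in non-classical monocytes (0.535%) and 6 in neutrophils (0.925%). The same held for 2 in conventional dendritic cells type 1 (2.08%), 1 in plasmacytoid dendritic cells (2.36%) and 4 in mast cells or basophils (5.98%). The next largest values were 0.82 for *Ptgs2* in cavity-type macrophages and -0.72 for *Cyp4f18* in mast cells or basophils. Then came -0.70 for *Ltc4s* in CCR2+ macrophages and -0.61 for *Ptgs2* in microglia-type macrophages. The *Cyp4f18* size exceeded 87.0% of genes of its class, and the last *Ptgs2* size 99.3%. *Cyp4f18* lay only in basophil cells, 21 of 29 WT and 8 of 15 KO cells, at 913 and 719 CPM there. For *Ltc4s* in CCR2+ macrophages, 4 of 196 WT and 3 of 179 KO cells held at least 50% of the UMIs.

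**Figure D4:**
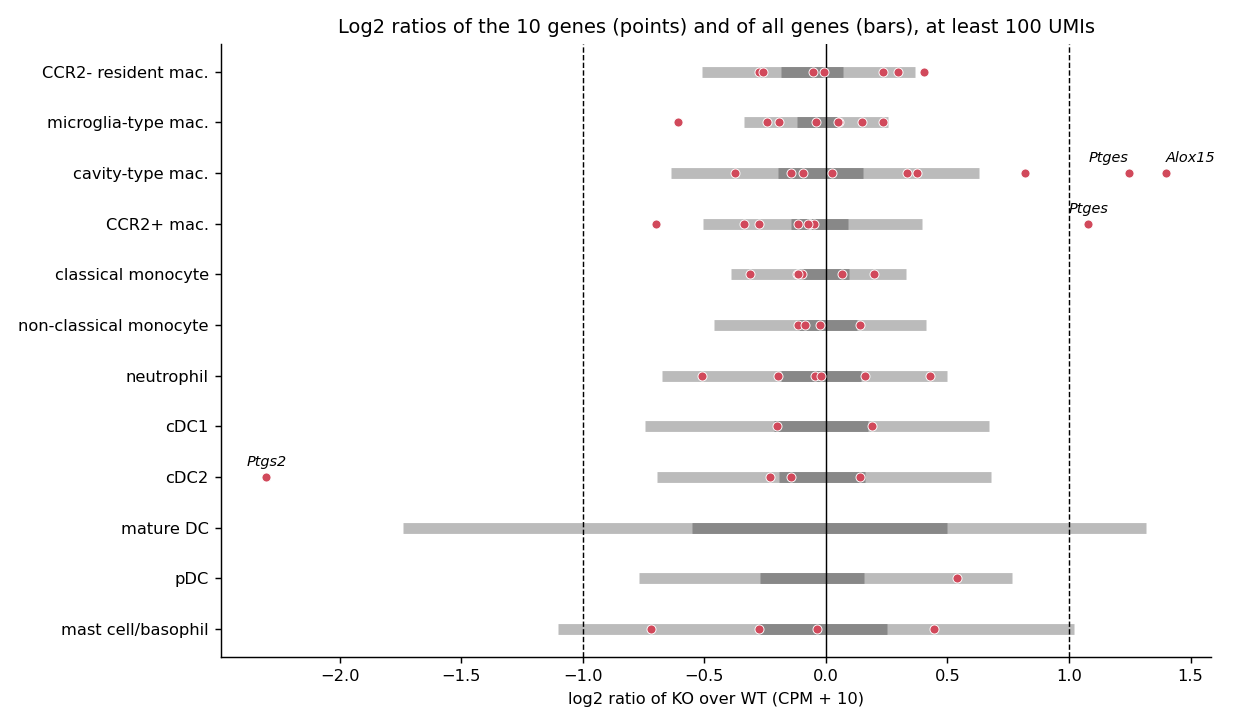
Log2 ratio of KO over WT on the CPM + 10 scale for the 60 counted pairs of member and class, drawn per class over the middle range of all genes counted in that class. Of the 60 points, 4 lie past a size of 1, and the rest lie within it.

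*Alox15* in cavity-type macrophages rested on 926 WT and 2634 KO UMIs, a 2.69-fold higher level in the KO library (2.5–2.90), in a class where 0.759% of all genes were higher in the KO library by a log2 ratio of 1 or more. An *Alox15* UMI was seen in 12 of 63 WT and 29 of 59 KO cells. After thinning the shares were 17.7% (9.20–29.5) and 42.9% (29.7–56.8), against 0.203% and 0% of B or T cells. The RNA lay in few cells, since 2 WT cells and 5 KO cells held at least 50% of it, with 277 and 363 UMIs in the highest cell. Among cells with male-linked RNA, 7 of 44 WT and 22 of 44 KO cells had a UMI (172 and 2251 UMIs), a log2 ratio of 3.27. Among cells with female-linked RNA, 4 of 16 and 4 of 12 had one (720 and 375 UMIs), a log2 ratio of -0.31. The higher level of the KO library was therefore held by the male cells, and the female cells gave the opposite sign. How many of the 5 hearts of each pool gave these cells is not known here.

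*Ptges* in the same cells had 76 UMIs in the WT and 234 UMIs in the KO library, 2.91-fold higher in the latter (2.24–3.82), with a UMI in 24 of 63 WT and 31 of 59 KO cells. Thinned shares were 16.1% (8.02–27.7) and 26.8% (15.8–40.3), which overlap, and B or T cells had 0.610% and 0.425%. Here both sexes gave the same sign, 1.16 in male and 1.12 in female cells, the latter from 11 and 22 UMIs, with 15 of the 22 in 1 of 12 KO cells, so that the female value rests on that cell. On the mean of per-cell log values, which is not the scale of the ratio limit, the difference was 0.35. *Ptgs2* in cavity-type macrophages stood at 102 CPM in the WT and 187 CPM in the KO library, short of the size used. Summed markers of other cells were low in this class in both libraries, with the neutrophil list at 110 and 72.7 CPM and the cardiomyocyte list at 22.4 and 55.6 CPM, and the part of such RNA in these ratios was not tested.

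*Ptges* in CCR2+ macrophages came from 20 WT and 106 KO UMIs, a 4.80-fold difference (2.96–8.18), in a class where 0.308% of all genes passed a log2 ratio of 1 upwards. A UMI was seen in 13 of 196 and 29 of 179 cells, and 26 of the 106 UMIs were in 1 KO cell. Without the highest cell of each library the log2 ratio was 0.92, so this ratio lies at the edge of the size used. On the mean of per-cell log values, which is not the scale of that size, the difference was 0.10.

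*Ptgs2* in conventional dendritic cells type 2 ran the other way, with 421 UMIs in the WT and 89 UMIs in the KO library, 315 CPM (285–346) against 55.9 CPM (44.9–68.8). The WT level was 5.63-fold higher (4.47–7.16), in a class where 0.944% of all genes passed a log2 ratio of 1 downwards. It rested on 13 of 53 WT and 7 of 51 KO cells, with 180 and 37 UMIs in the highest cell, and 2 cells of each library held at least 50%. Thinned shares of 24.4% (12.9–39.5) and 13.2% (4.41–28.1) overlapped. Left without those highest cells, the log2 ratio was -2.18. On the mean of per-cell log values, which is not the scale of the size used, the difference was -0.34. When cells were clustered without the cell cycle regression, this class took in 230 WT and 210 KO cells and the log2 ratio was -0.37.

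**Figure D5:**
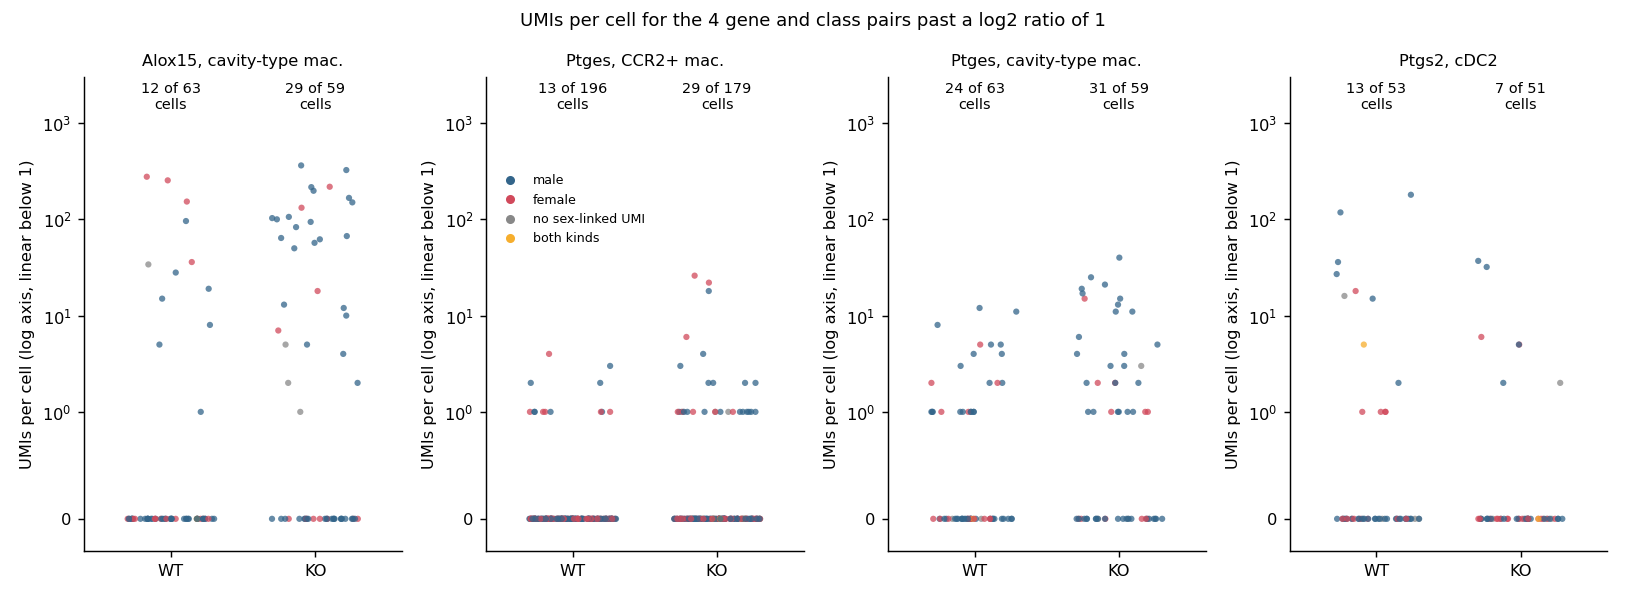
UMIs of the member in each cell, not scaled for depth, 1 point per cell on a log axis that is linear below 1. Shown are WT and KO cells of the 4 pairs of member and class past a log2 ratio of 1. Most cells lie at 0 and a few cells hold most UMIs, above all for Alox15 in cavity-type macrophages and Ptgs2 in conventional dendritic cells type 2.

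A wider list of 68 further genes of lipid mediator metabolism was read in the same way, and 25 of them reached 50 CPM in a myeloid class of either library. By role these were 4 of 12 phospholipases, 0 of 5 further lipoxygenases, 3 of 7 prostanoid enzymes, 3 of 8 leukotriene enzymes, 4 of 13 breakdown enzymes, 2 of 3 transporters and 9 of 20 receptors. *Tbxas1*, thromboxane synthase, was highest in cavity-type macrophages (267 CPM in the WT and 317 CPM in the KO library), as *Ptgs1* was. The leukotriene B4 receptor *Ltb4r1* was highest in non-classical monocytes (355 and 347 CPM), as was *Hpgd*, which inactivates prostaglandins (638 and 630 CPM). *Mgst1*, a microsomal glutathione transferase (544 and 696 CPM), *Pla2g7*, which breaks down platelet-activating factor (941 and 968 CPM), and the lipid and peptide receptor *Fpr2* (203 and 141 CPM) were highest in neutrophils.

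The other listed genes that reached this level were *Pla2g4a*, *Pla2g15*, *Plaat3*, *Ptges3*, *Akr1b3*, *Mgst3*, *Dpep2*, *Cyp4f16*, *Ptgr1*, *Ephx1*, *Abcc1*, *Abcc4*, *Ptger3*, *Ptger4*, *Tbxa2r*, *Cysltr1*, *Cmklr1*, *Gpr18* and *Ptafr*. *Cysltr1*, the receptor for cysteinyl leukotrienes, was highest in conventional dendritic cells type 2 (112 and 99.9 CPM), where *Ltc4s* stood at 2.99 and 5.03 CPM. *Pla2g15*, a lysosomal phospholipase, was highest in CCR2- resident macrophages (105 and 132 CPM), and the chemerin and resolvin receptor *Cmklr1* in cavity-type macrophages (98.6 and 105 CPM).

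Of 176 counted pairs on this list, 4 (2.27%) passed a log2 ratio of 1, against 1.03% of all gene and class pairs (282 higher and 351 lower in the KO library), all higher in the KO library, and 3 of the 4 were in cavity-type macrophages. *Pla2g4a*, the cytosolic phospholipase that releases arachidonic acid, stood there at 57.5 CPM in the WT and 248 CPM in the KO library (172 and 783 UMIs), a 4.31-fold difference (3.65–5.11) with a UMI in 48 of 63 and 48 of 59 cells. Male and female cells gave 1.91 and 1.43 for it, the female value with 58 of 76 KO UMIs in 1 of 12 cells against 38 WT UMIs in 16 cells. *Ptgis*, prostacyclin synthase, stood at 6.68 and 38.9 CPM (20 and 123 UMIs, in 6 and 17 cells), with 1.75 in male and 0.06 in female cells. *Ephx1*, an epoxide hydrolase, stood at 18.7 and 51.2 CPM in the same class, with 0.76 in male and 1.90 in female cells. The fourth was *Pla2g7* in conventional dendritic cells type 2, at 17.2 and 65.3 CPM, where 1 KO cell held 51 of 104 UMIs and 2.11% of all genes passed this size. It gave 0.36 in male and 2.40 in female cells. Counting members and list together, cavity-type macrophages held 5 of the 8 pairs past this size. Over all genes, 86 of the 633 pairs past it were in this class, which is 1.33% of the 6458 genes counted there.

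Over 32 points, the 16 named classes in each of the 2 libraries, the genes whose log2(CPM + 10) ran most like that of a member were found among 13845 genes. These values are a description, since points share libraries and classes differ in depth and cell number. The closest genes to *Hpgds* were *Plau* (Pearson r = 0.952), *Reps2* and *Prune2*. For *Ltc4s* they were *Cxcl1* (0.943), *Folr2* (0.940) and *Cbr2* (0.935), the last 2 being markers on the list of CCR2- resident macrophages. *Alox15* ran with *Cgnl1* (0.950), *Gm10369* and *Lpar1*, *Ptges* with *Gm17023* (0.919), *Proz* and *F3*, and *Ptgs1* with *Plod1* (0.944), *Tfec* and *Rusc2*. The closest to *Ptgs2* was *Zc3h12a* (0.863), followed by *Tnfsf14* and *Pde7b*, and *Alox5* ran with *Nfkbiz* (0.865), *Plk3* and *Gcnt1*. *Alox5ap* was nearest to *Gnb2* (0.916), *Nfam1* and *Cd300a*, and *Cyp4f18* to *Xylt1* (0.849), *Zfp608* and *Dok3*. *Lta4h* had the weakest neighbours, with *Arhgap15* (0.802), *Msl2* and *Vps26b*.

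In the GRCm38 annotation the members lie on 7 chromosomes, and the intervals below are whole genes. *Alox5* (chr6:116410077-116461178, - strand) and *Hpgds* (chr6:65117293-65144908, - strand) are on the same chromosome, as are *Alox15* (chr11:70344152-70352031, - strand) and *Ltc4s* (chr11:50236461-50238616, - strand), and *Ptgs1* (chr2:36230426-36252272, + strand) and *Ptges* (chr2:30889471-30929863, - strand). The others are *Alox5ap* (chr5:149264767-149288153, + strand), *Ptgs2* (chr1:150100031-150108227, + strand), *Lta4h* (chr10:93453411-93484875, + strand) and *Cyp4f18* (chr8:71988482-72009626, - strand). *Alox5*, *Alox15*, *Ptgs2* and *Lta4h* overlap no other annotated gene, *Ptges* overlaps *Gm13400* on its own strand, and the other 5 overlap a gene on the opposite strand. Whether the counting used strand is not given in the sources used here, so their values may hold reads of those genes. These are gene intervals and hold exons and introns alike.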

How the data were processed

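The deposited values were raw counts, UMIs per gene and cell barcode, which the authors made by aligning 10x 5' libraries to mm10/GRCm38 (Cell Ranger 8.0.1 per the submitters' processing notes), with 1 library per genotype. The paper names another Cell Ranger version and 2 versions of Seurat.

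Barcodes with under 500 genes, under 250 UMIs or over 30% mitochondrial UMIs were left out, as were the highest scrublet scores at 0.4% per 1000 barcodes (scanpy 1.11.5; its automatic threshold marked 1 WT and 4 KO barcodes). That was 98 WT and 73 KO barcodes. The authors' assignment of cells to hearts was not repeated here. Cells were normalized, integrated (CCA, 2000 features), corrected for S and G2/M scores and clustered with Seurat 5.3.0 in R 4.3.3 (30 dimensions, k = 20, resolution 0.8). Clusters nearest to macrophages, monocytes, conventional dendritic cells type 2 or mature dendritic cells, other than shallow unnamed ones, were clustered again by themselves. A cluster led by *Ccl8* and *Actc1* (212 WT and 129 KO cells) was among them, though its first name was cardiomyocyte. Members, the wider pathway list, *Lyve1* and genes linked to sex did not enter the clustering. A cluster was named from the list with the highest mean score and at least 3 markers in at least 25% of cells. It stayed unnamed where another list led its 10 leading genes, or where its depth was below 0.5 of the sample's median without a marker of its own among them. This scoring, and the merging of the mast cell and basophil lists, were set after the data were seen. The neutrophil, cardiomyocyte, red cell, platelet, fibroblast, endothelial, and mast cell and basophil lists were summed in each class. In classical monocytes the neutrophil list stood at 1713 CPM in the WT and 926 CPM in the KO library, and in non-classical monocytes at 742 and 323 CPM. The other lists stayed at or below 357 CPM in the myeloid classes apart from the classes they name.

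UMIs summed per class were divided by all UMIs of the same cells (CPM). Ratios are log2 of CPM + 10, with a size of 1 and 100 UMIs as limits. For shares each cell was thinned to 6400 UMIs and shallower cells were left out. The ratio limit was tested on simulated counts that held counting error only and lacked the uneven spread over cells of these data. No p-value was computed, since cells of 1 pool are not replicates. Intervals were from scipy 1.17.1. Members and lists were chosen with earlier results of these data known. Named in the text are all members, the pathway genes with at least 50 CPM in a myeloid class or past the ratio limit, and the 3 genes most like each member. The clusters described within classes were chosen after their values were seen. Alternatives covered scaling, the CPM added, count limits, cell limits, doublets, clustering and sex. Leaving out the highest cell, taking the largest cluster only, and some scaling and sex settings were added after the data were seen. Promoter sequences from RefSeq matched 8 of 10 members.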

Additional observations from a re-analysis of the deposited data

Results flagged for a closer look

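No group had enough libraries for a check of outlying samples, since each genotype is 1 library. The ratio of KO over WT had opposite signs in cells with male-linked and with female-linked RNA in 30 of the 60 counted pairs of member and class. In 24 of those 30 both sexes held at least 100 UMIs. The same count was not made over all genes, so 30 of 60 is not read as a trait of the members. In 3 of the 24, 1 sex or both also passed a log2 ratio of 1, and none of these differences was tested. *Alox15* in cavity-type macrophages was 3.27 in male and -0.31 in female cells. *Alox5ap* in conventional dendritic cells type 2 was 0.18 in male and -1.03 in female cells. *Ptgs2* in mast cells or basophils was -4.92 in male and 2.20 in female cells, in a class of 29 WT and 15 KO cells. The male value came from 15 WT and 5 KO cells (133 and 2 UMIs), the female value from 7 and 6 cells (48 and 199 UMIs). In the KO library 1 cell of the class held 172 of 201 UMIs, and in both libraries *Ptgs2* lay almost only in the basophil part.

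Some members also stood above the median of the myeloid classes in cells outside them, with at least 100 UMIs in each library. *Alox5* stood at 222 CPM in the WT (193–254) and 330 CPM in the KO library (300–362) in innate lymphoid cells type 2, with a UMI in 31 of 47 and 43 of 55 cells, while *Alox5ap* was detected beside it in 2 of 43 WT and 1 of 50 KO thinned cells. *Ptgs2* in the same class was at 477 and 698 CPM, from 5 and 14 cells. *Lta4h* was at 52.3 CPM in B cells, 115 CPM in NK cells and 136 CPM in T cells of the WT library. *Cyp4f18* was at 133 CPM in WT B cells. *Hpgds* was at 492 CPM in the WT (448–540) and 336 CPM in the KO library (284–395) in an unnamed cluster of 136 and 68 cells led by *Plxna4* and *Gm26917*.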

How the results depend on the processing

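No paired analysis was possible because each genotype is 1 library. The count of 4 pairs past a log2 ratio of 1 became 9 of all pairs with no minimum of UMIs and 2 without cell cycle regression, where CCR2+ macrophages and plasmacytoid dendritic cells were not formed and 10 of the 60 pairs had no value. It was 5 with a minimum of 20 UMIs, 6 under stricter cell limits, 5 in male cells and 4 in female cells. In female cells *Alox15* in cavity-type macrophages turned to -0.31. The other 3 pairs kept their direction and passed the size there (1.5 and 1.12 for *Ptges* in CCR2+ and cavity-type macrophages, -1.49 for *Ptgs2* in conventional dendritic cells type 2) but had under 100 UMIs and were not counted. In male cells *Ptges* in CCR2+ macrophages was 0.79. On mean per-cell log values, log2 of 1 + UMIs per 10000, the difference was 1.06 for *Alox15*. That is not the scale of the CPM + 10 ratio, and low levels such as those of *Ptges* give small differences on it. With these differences included, the values ranged from -0.31 to 3.27 for *Alox15*. They ranged from 0.10 to 2.02 for *Ptges* in CCR2+ macrophages and from 0.35 to 1.51 for *Ptges* in cavity-type macrophages. For *Ptgs2* in conventional dendritic cells type 2 the range was -2.47 to -0.34. The share of all genes past this size was 1.65% with 1 CPM added, 1.04% with median-of-ratios scaling, 2.19% with a minimum of 20 UMIs and 3.54% with none. Each of the 60 pairs kept its side of the limit under 7 of 13 settings. Without thinning, the class with the highest share of cells with a UMI was the same in 10 of the 20 sets of member and library, and 136 of 240 shares lay inside the thinned interval. Depth limits the small classes, since mature dendritic cells had 22 WT and 4 KO cells and none of their pairs was counted. Causes were not tested.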

Other observations

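Innate lymphoid cells type 2, which are no part of the myeloid classes, carried *Alox5* without its usual partner. The *Alox5* level was 222 CPM in the WT and 330 CPM in the KO library, above neutrophils in both (206 and 231 CPM) with overlapping intervals in the WT library, and a UMI was found in 53.5% of WT (37.7–68.8) and 68.0% of KO (53.3–80.5) thinned cells. *Alox5* and *Alox5ap* together were found in 2 of 43 WT and 1 of 50 KO thinned cells, against 67.5% and 68.4% of neutrophils.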
